A study of Mus musculus with 12 samples.

Results

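The genes described here are the 5 NF-κB subunits Nfkb1, Nfkb2, Rel, Rela and Relb and 5 feedback inhibitors and IκB-family regulators, Nfkbia, Nfkbie, Nfkbiz, Tnfaip3 and Bcl3. They were chosen by name: the estimated counts of all transcripts carrying each symbol were summed, which gave 10 genes of 32699 in the table, and all 10 were among the 19125 genes tested. The RNA was that of B cells purified from mouse spleen, with the genotype label WT (wild type) or KO (knockout) of Chd4, the ATPase of the NuRD chromatin-remodelling complex. Cells were unstimulated (0 hr) or held ex vivo for 48 hr with 10 µg/ml lipopolysaccharide (LPS), a Toll-like receptor ligand, and 25 ng/ml mouse interleukin 4 (IL-4). Each of the 4 groups has 3 libraries: replicates 1 to 3 are WT at 0 hr, replicates 4 to 6 KO at 0 hr, replicates 7 to 9 WT at 48 hr and replicates 10 to 12 KO at 48 hr. The strain, age and sex of the mice, the Cre line and the deleted exons are not given in the sources used here. The labels do not say whether replicates were separate mice or cultures, so p-values measure the spread between these libraries, which may be technical. No group was cultured for 48 hr without stimulus, so stimulus and time in culture cannot be told apart.

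NF-κB proteins are dimeric transcription factors that IκB proteins hold inactive in the cytoplasm. Signals from Toll-like receptors, CD40 and the B cell receptor activate the IκB kinase, which leads to breakdown of IκB and lets the dimers enter the nucleus. The dimers raise transcription of their own inhibitors, such as IκBα and A20, so that the response limits itself, and B cells use the pathway for survival, proliferation and class switching.

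Library totals were 38956484 to 53189198 estimated counts, and replicates varied more in KO (biological coefficient of variation 31.1% at 0 hr and 23.9% at 48 hr) than in WT (17.7% and 14.3%). Levels are counts-per-million values (CPM) with library sizes adjusted by TMM, edgeR's trimmed-mean scaling, and a gene was called at an edgeR quasi-likelihood adjusted p below 0.05. Chd4 held 99.4, 68.1 and 92.8 CPM in WT 0 hr, 100.02, 70.6 and 92.8 in KO 0 hr, 102, 96.1 and 123 in WT 48 hr and 51.3, 38.8 and 74.7 in KO 48 hr. Its RNA did not separate the labels at 0 hr (log2 fold change 0.017, edgeR adjusted p = 0.993), so "KO" below means the library labelled KO. At 48 hr Chd4 was lower in KO (-0.96, 95% interval -1.43 to -0.49, edgeR adjusted p = 0.0383), a call lost without replicate 1, 3, 7, 8, 9, 10 or 11, with library totals alone or with no low-count filter (adjusted p = 0.0504 to 0.162). KO replicates 6 and 12 lay nearest the WT mean of their time among KO libraries, at root-mean-square log2 distances of 0.752 and 0.908 over all tested genes, against 0.777 to 1.07 for the other 4.

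Markers of other cell types were summed in each library. T cell markers were 60.5 and 44.4 CPM in KO replicates 6 and 12, 112 to 126 in the other KO libraries and 38.4 to 68.0 in WT. Lck alone carried most of that sum, with means in WT and KO of 43.0 and 73.3 CPM at 0 hr and 36.6 and 86.4 at 48 hr. The others were low at 48 hr. Cd3d (0.986 and 0.741), Cd3g (0.173 and 0.164) and Cd8a (0.928 and 0.538) were not higher in KO there. Cd3e (0.0778 and 0.192), Cd4 (0.322 and 0.342) and Zap70 (1.09 and 1.55) were. At 0 hr all but Cd8a (6.64 and 5.77) had higher means in KO. Zap70 was called there (1.21 and 5.02 CPM, log2 2.04, edgeR adjusted p = 0.0412), a call lost in 13 of 23 alternatives. Plasma cell markers summed to 359 to 491 CPM in WT and 512 to 815 in KO at 0 hr and to 574 to 578 and 644 to 821 at 48 hr, without overlap. Most of the 0 hr sum was Jchain (means 253 in WT and 465 in KO, edgeR adjusted p = 0.199). Most of the 48 hr sum was Xbp1 (541 and 644, edgeR adjusted p = 0.358). Xbp1 (145 and 133) and Prdm1 (5.71 and 5.12) were not higher in KO at 0 hr. At 48 hr Prdm1, encoding Blimp-1, was 12.3 ± 2.25 CPM in WT and 41.3 ± 15.8 in KO (SD, n = 3, log2 1.74, edgeR adjusted p = 0.00485), a call lost without replicate 7 (adjusted p = 0.0513). Sdc1, encoding CD138, was higher in KO at 0 hr (log2 1.02, edgeR adjusted p = 0.0483) and at 48 hr (1.09, edgeR adjusted p = 0.0294), calls lost in 13 and 6 of 23 alternatives. Dendritic cell markers at 48 hr were 85.5 to 88.2 CPM in WT and 50.1 to 65.4 in KO. Flt3 alone carried nearly all of that sum, with means of 85.4 CPM in WT and 56.7 in KO. Itgax (0.154 and 0.120), Siglech (0.296 and 0.180), Clec9a (0.0266 and 0) and Xcr1 (0.890 and 1.39) were low. B cell markers summed to 5042 to 8304 CPM. Erythroid and monocyte/macrophage markers summed to 278 to 3366 and 123 to 365 CPM at 0 hr and to 4.80 to 13.4 and 17.8 to 42.6 at 48 hr. Xist was 75.4 to 293 CPM in WT and 0.856 to 1.59 in KO. Y-linked Ddx3y was 20.8 to 28.3 CPM in WT and 91.8 to 139 in KO, and Y-linked Eif2s3y 14.5 to 38.4 and 68.6 to 206. Every WT library thus held both Xist and Y-linked RNA, while KO libraries held Y-linked RNA and almost no Xist. Genotype and this difference in sex-linked RNA cannot be told apart. The part of these values in the results below was not tested.

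Promoter sequence is shown because a κB site, the DNA element that NF-κB dimers bind, is the textbook link between the subunits and their feedback genes. RefSeq windows (GRCm38.p6, 250 bases before to 50 after each start) were present for 7 of the 10 genes. The κB consensus, searched on both strands, matched a window of 6 of these 7 (Nfkb2, Rel, Nfkbia, Nfkbie, Tnfaip3 and Bcl3), against 8.46% of 32851 windows of the same length and 9.55% of 27025 genes. The upstream parts for 3 genes with different time courses are printed 5′ to 3′ on the gene's strand, with matched letters in capitals: Nfkbia (chr12:55492648-55492897, minus strand), Nfkbie (chr17:45555450-45555699, plus strand) and Rel (chr11:23770971-23771219, minus strand), in mm10.
Nfkbia: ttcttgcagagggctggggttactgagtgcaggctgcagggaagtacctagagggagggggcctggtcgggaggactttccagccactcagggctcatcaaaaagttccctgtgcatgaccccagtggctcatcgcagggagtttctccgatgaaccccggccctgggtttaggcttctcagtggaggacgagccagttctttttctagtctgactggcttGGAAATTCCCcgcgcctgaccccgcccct
Nfkbie: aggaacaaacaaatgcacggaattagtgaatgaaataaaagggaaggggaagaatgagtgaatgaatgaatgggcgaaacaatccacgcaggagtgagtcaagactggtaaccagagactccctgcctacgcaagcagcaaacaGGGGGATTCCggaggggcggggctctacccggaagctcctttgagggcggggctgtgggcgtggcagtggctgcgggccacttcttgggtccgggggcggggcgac
Rel: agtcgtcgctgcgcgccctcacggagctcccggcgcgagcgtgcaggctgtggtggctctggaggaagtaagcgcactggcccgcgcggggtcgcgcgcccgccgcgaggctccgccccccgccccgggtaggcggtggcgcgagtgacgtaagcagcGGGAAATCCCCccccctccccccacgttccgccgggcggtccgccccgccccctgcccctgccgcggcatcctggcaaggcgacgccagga
The match began 29 bases before the RefSeq start in Nfkbia and 106 bases before it in Nfkbie, and in Rel 2 overlapping matches share the capitals. On the TMM scale Nfkbia rose over the 48 hr, while Nfkbie and Rel were not called higher under any scaling tried. A match is a description of letters and does not show binding.

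**Figure D1:**
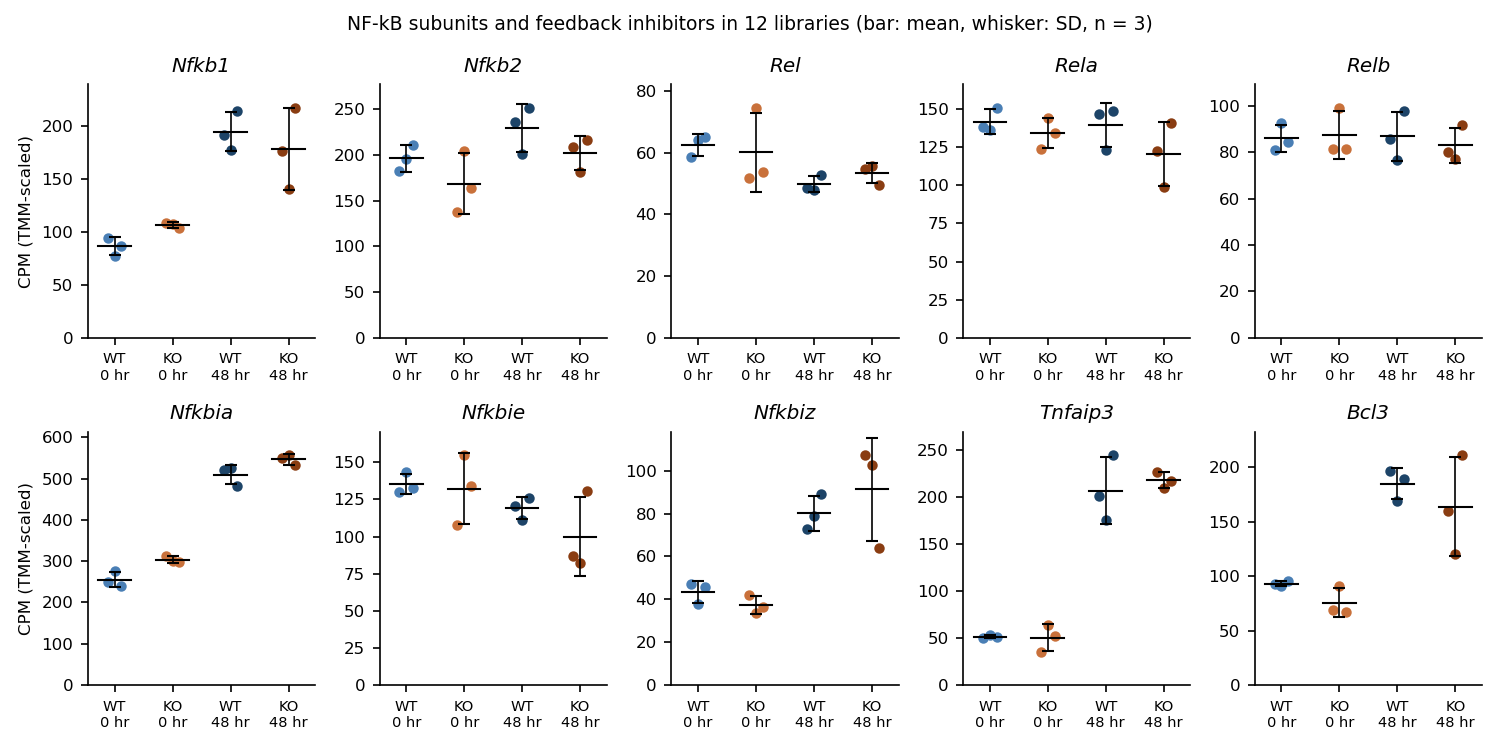
TMM-scaled CPM of the 10 genes in the 12 libraries (points), with the group mean (bar) and SD (whisker, n = 3), on linear axes from 0. On this scale Nfkb1, Nfkbia, Nfkbiz, Tnfaip3 and Bcl3 are higher at 48 hr than at 0 hr in every library of the same genotype, while with library totals alone only Tnfaip3 (both genotypes) and Nfkbiz (KO) are called higher.

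Over the 48 hr, 5 of the 10 genes rose in both genotypes on the TMM scale: the subunit gene Nfkb1, the inhibitor genes Nfkbia and Tnfaip3 and the nuclear IκB genes Nfkbiz and Bcl3. The median absolute log2 change was 0.61 in WT and 0.57 in KO for the 10 genes, and 1.38 and 1.27 for all tested genes. Of all tested genes in WT, 29.1% changed more than Tnfaip3, 57.6% more than Nfkb1, 63.6% more than Nfkbia, 63.8% more than Bcl3 and 67.5% more than Nfkbiz. The shares in KO, in that order, were 22.5%, 69.8%, 65.5%, 55.9% and 49.1%. In WT 6 of 10 were called, 5 higher and 1 lower, where 73.9% of all tested genes were called, 33% higher and 40.9% lower. In KO 6 of 10 were called, again 5 higher and 1 lower, against 70.7% of all genes, 33% higher and 37.7% lower. The groups did not overlap for 7 of 10 genes in WT (79.8% of all genes), 5 higher (34.9%) and 2 lower (44.9%), and for 5 of 10 in KO (72.5%), all higher (33%). Bulk RNA cannot tell fewer expressing cells from less RNA per cell. The direction depends on the scale: TMM factors were 1.28 to 1.42 at 0 hr and 0.723 to 0.766 at 48 hr. Against TMM, the median of all genes moved by -0.67 (WT) and -0.63 (KO) log2 with upper-quartile scaling and by -0.89 and -0.81 with library totals alone, a setting added after the data were seen. Upper-quartile scaling called 3 higher and 5 lower in WT and 4 and 5 in KO. The median of all genes then stood at -1.06 and -0.93 (log2). The shares of all genes called under that scaling are not given here, so these counts cannot be set against them. Library totals alone called 1 higher and 5 lower in WT (3603 and 11925 of all 19125 genes) and 2 and 5 in KO (3657 and 11344).

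The distance of a gene from the median of all genes hardly depends on the scale. That median was -0.39 (log2) in WT and -0.30 in KO with TMM, and the median of the 10 genes was 0.55 and 0.50. All 10 stood above the all-gene median in WT and 9 of 10 in KO, where Nfkbie lay below it, under each of the scalings tried. A scaling shifts a gene and that median nearly alike, so the agreement between scalings is no separate support. In WT the distance was 2.40 for Tnfaip3, 1.56 for Nfkb1, 1.39 for Nfkbia, 1.38 for Bcl3 and 1.27 for Nfkbiz, and 0.061 (Rel) to 0.62 (Nfkb2) for the other 5. In KO it was 2.41 for Tnfaip3, 1.59 for Nfkbiz, 1.42 for Bcl3, 1.15 for Nfkbia and 1.04 for Nfkb1, and -0.10 (Nfkbie) to 0.56 (Nfkb2) for the others. Of the 5 genes nearer the median, 4 encode subunits.

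**Figure D2:**
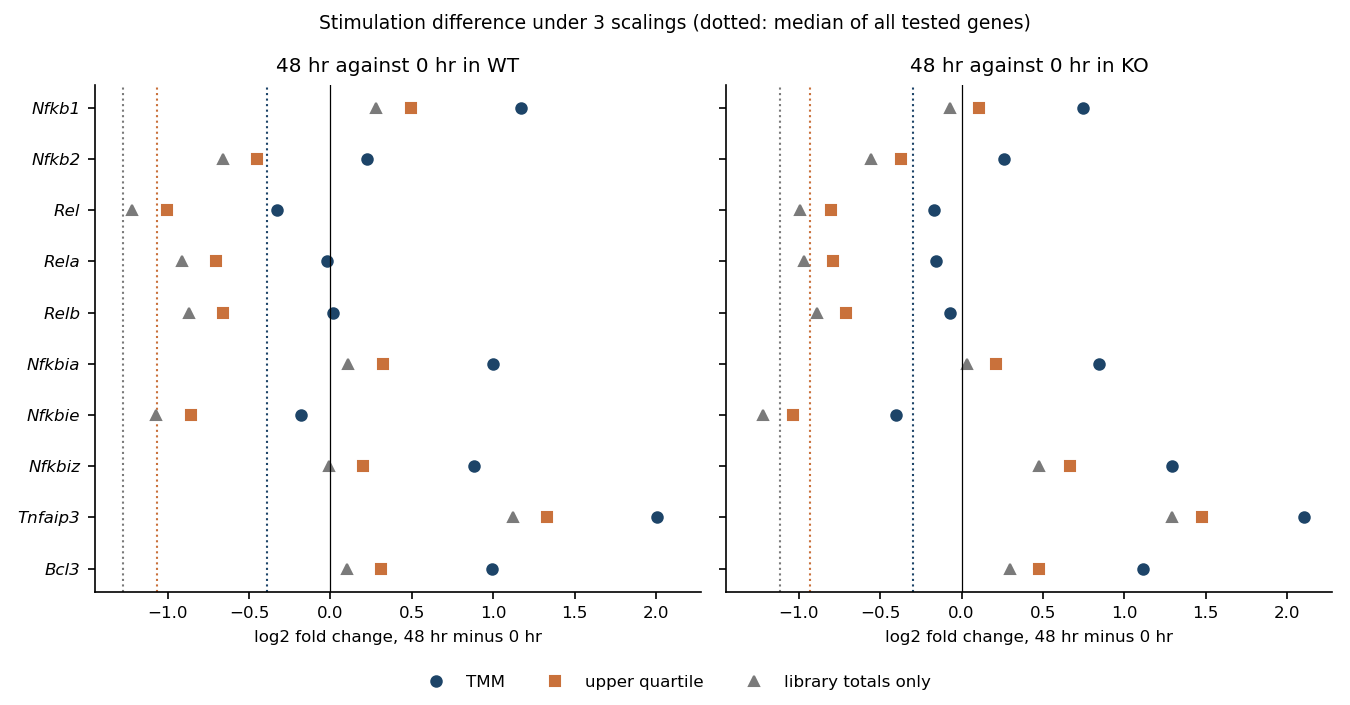
Log2 fold change from 0 to 48 hr for each gene in WT and KO under TMM (circles), upper-quartile scaling (squares) and library totals alone (triangles), with the median of all tested genes under each as a dotted line of the same colour. The points shift left together with their dotted line, Tnfaip3 stays right of 0 under all 3, and Nfkb2 in both genotypes, Relb and Nfkbiz in WT and Nfkb1 in KO change sign.

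Nfkb1 encodes p105, the precursor of the p50 subunit (chromosome 3, 135584655 to 135691547, mm10). It held 94.6, 77.5 and 86.7 CPM in WT 0 hr, 108, 108 and 103 in KO 0 hr, 191, 177 and 214 in WT 48 hr and 176, 141 and 217 in KO 48 hr. Every 48 hr library lay above every 0 hr library, KO lay above WT at 0 hr without overlap, and the genotypes overlapped at 48 hr. Nfkb1 rose 2.25-fold in WT (log2 1.17, SE 0.14, edgeR adjusted p = 5.95e-06) and 1.67-fold in KO (log2 0.74, SE 0.14, adjusted p = 0.000373) on the TMM scale, but with library totals alone the log2 differences were 0.28 (adjusted p = 0.0996) and -0.072 (0.672). Upper-quartile scaling also lost the KO call (0.11, 0.486). The KO response minus the WT response was -0.43 (95% interval -0.86 to 0.0021, edgeR adjusted p = 0.583), which did not pass the test.

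Nfkb2 encodes p100, the precursor of p52 and itself an inhibitor of RelB (chromosome 19, 46304320 to 46312385). It held 182, 195 and 211 CPM in WT 0 hr, 138, 204 and 164 in KO 0 hr, 237, 201 and 252 in WT 48 hr and 209, 181 and 216 in KO 48 hr. The ranges overlapped between times and between genotypes. The log2 difference over time was 0.23 in WT (95% interval -0.077 to 0.53, edgeR adjusted p = 0.158) and 0.26 in KO (-0.045 to 0.56, 0.115). It was called higher in WT with relative log expression (RLE) scaling (0.32), by DESeq2 (0.32) and for its main transcript (0.76), and in KO without KO 0 hr replicate 5 (0.42), and lower in both with upper-quartile scaling (-0.45 and -0.37) and library totals alone (-0.66 and -0.56).

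Rela encodes p65, the transactivating subunit of the canonical dimer (chromosome 19, 5637483 to 5648130). It held 138, 136 and 151 CPM in WT 0 hr, 124, 144 and 135 in KO 0 hr, 147, 123 and 149 in WT 48 hr and 122, 98.8 and 141 in KO 48 hr. The lowest library was KO 48 hr replicate 11, and the groups overlapped. The time difference was -0.023 in WT (95% interval -0.30 to 0.26) and -0.15 in KO (-0.43 to 0.12) with TMM, and -0.91 and -0.97 with library totals alone, where both were called lower.

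Relb encodes the partner of p52 in the alternative pathway (chromosome 7, 19606217 to 19629438). It held 81.2, 92.7 and 84.4 CPM in WT 0 hr, 81.3, 99.3 and 81.6 in KO 0 hr, 85.8, 76.8 and 98.0 in WT 48 hr and 80.3, 77.3 and 91.6 in KO 48 hr. The 4 groups covered nearly the same range. The time difference was 0.013 in WT (95% interval -0.25 to 0.28) and -0.073 in KO (-0.34 to 0.19) with TMM, and -0.66 and -0.71 with upper-quartile scaling, where both were called lower.

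Rel encodes c-Rel, a subunit tied to proliferation of mature B cells (chromosome 11, 23736847 to 23770970). It held 58.5, 64.2 and 65.0 CPM in WT 0 hr, 51.7, 74.7 and 53.8 in KO 0 hr, 48.6, 48.0 and 52.7 in WT 48 hr and 54.8, 55.6 and 49.7 in KO 48 hr. The WT groups did not overlap between the times, the KO groups did, and KO 0 hr replicate 5 was the highest library. On the TMM scale Rel fell by 0.33 (log2) in WT (edgeR adjusted p = 0.0376), and the difference in KO was -0.17 (0.260). The WT call was lost in 11 of 24 alternatives, among them leaving out replicate 2, 3, 7, 8, 9, 10 or 11 (adjusted p = 0.0549 to 0.121).

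Of the feedback inhibitors and IκB-family regulators, Nfkbia encodes IκBα, the classic fast feedback inhibitor (chromosome 12, 55489410 to 55492647). It held 250.0, 276 and 240.1 CPM in WT 0 hr, 313, 301 and 297 in KO 0 hr, 520.2, 526 and 482 in WT 48 hr and 550.1, 558 and 532 in KO 48 hr. No 2 of the 4 groups overlapped: 48 hr was above 0 hr, and KO was above WT at both times. Nfkbia rose 2.00-fold in WT (log2 1.00, SE 0.092, edgeR adjusted p = 3.42e-07) and 1.80-fold in KO (log2 0.85, SE 0.092, adjusted p = 1.91e-06) on the TMM scale, but with library totals alone the log2 differences were 0.11 (adjusted p = 0.217) and 0.031 (0.728).

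Tnfaip3 encodes A20, a ubiquitin-editing enzyme that acts upstream of the IκB kinase (chromosome 10, 19000910 to 19015657). It held 50.1, 53.3 and 51.3 CPM in WT 0 hr, 35.1, 64.2 and 52.5 in KO 0 hr, 201, 175 and 245 in WT 48 hr and 227, 209.6 and 218 in KO 48 hr. The lowest 48 hr library was far above the highest 0 hr library, and the genotypes overlapped at both times. Tnfaip3 rose 4.02-fold in WT (log2 2.01, SE 0.18, edgeR adjusted p = 2.82e-07) and 4.31-fold in KO (log2 2.11, SE 0.18, adjusted p = 1.88e-07). It was called higher under all 24 alternatives, with log2 changes of 1.12 to 2.11 in WT and 1.29 to 2.32 in KO.

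Bcl3 encodes a nuclear IκB that binds p50 and p52 homodimers (chromosome 7, 19808462 to 19822770). It held 93.1, 91.1 and 95.4 CPM in WT 0 hr, 69.3, 91.2 and 66.7 in KO 0 hr, 197, 169 and 189.5 in WT 48 hr and 159.7, 120.5 and 212 in KO 48 hr. Every 48 hr library lay above every 0 hr library, and at 0 hr only KO replicate 5 fell inside the WT range. Bcl3 rose 1.99-fold in WT (log2 0.99, SE 0.17, edgeR adjusted p = 0.000181) and 2.16-fold in KO (log2 1.11, SE 0.18, adjusted p = 6.95e-05) on the TMM scale, and was not called with library totals alone (0.10 and 0.30) or, in WT, with upper-quartile scaling (0.31, adjusted p = 0.0987).

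Nfkbiz encodes IκBζ, a nuclear IκB induced by Toll-like receptors (chromosome 16, 55811375 to 55838899). It held 47.4, 37.7 and 45.6 CPM in WT 0 hr, 41.8, 33.8 and 36.2 in KO 0 hr, 73.0, 78.7 and 89.0 in WT 48 hr and 107, 103 and 63.7 in KO 48 hr. The times did not overlap, and at 48 hr KO replicates 10 and 11 were above every WT library while KO replicate 12 was below them. Nfkbiz rose 1.84-fold in WT (log2 0.88, SE 0.18, edgeR adjusted p = 0.000499) and 2.45-fold in KO (log2 1.29, SE 0.18, adjusted p = 1.92e-05) on the TMM scale. With upper-quartile scaling the WT difference was 0.20 (adjusted p = 0.329) and with library totals alone -0.011, and the KO difference of 0.48 was still called.

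Nfkbie encodes IκBε, a slower feedback inhibitor (chromosome 17, 45555703 to 45563169). It held 130.2, 143 and 133 CPM in WT 0 hr, 108, 155 and 134 in KO 0 hr, 120.4, 111 and 126 in WT 48 hr and 86.8, 82.5 and 131 in KO 48 hr. The WT groups did not overlap between the times, and the KO groups overlapped through replicate 12. The WT difference, -0.18, did not pass the test (edgeR adjusted p = 0.330). In KO, Nfkbie fell by 0.40 (log2) on the TMM scale (edgeR adjusted p = 0.0451). That call was lost in 12 of 24 alternatives, among them leaving out replicate 1, 2, 3, 5, 6, 10 or 11 (adjusted p = 0.0557 to 0.188).

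A ratio of 2 counts in the same library needs no scaling factor. Rela served as the denominator, a choice made after the data were seen, and the ratio shows unequal change, not that Rela stayed constant. Tnfaip3 over Rela was 0.283 to 0.446 at 0 hr and 1.37 to 2.12 at 48 hr. Nfkbia over Rela was 1.59 to 2.52 and 3.24 to 5.65, and Nfkb1 over Rela was 0.568 to 0.870 and 1.30 to 1.55. Each of these gained on Rela in every library, as did Bcl3 (0.496 to 0.674 and 1.22 to 1.51) and Nfkbiz (0.235 to 0.343 and 0.453 to 1.04). Nfkb2 over Rela was 1.11 to 1.43 at 0 hr and 1.54 to 1.83 at 48 hr, without overlap, although Nfkb2 itself was not called with TMM. The ratios of Relb (0.559 to 0.690 and 0.585 to 0.783), Rel (0.400 to 0.519 and 0.331 to 0.563) and Nfkbie (0.867 to 1.08 and 0.710 to 0.930) overlapped between the times.

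Levels were compared between genes per kilobase of the longest principal transcript in GENCODE M21, a length of 1 transcript and not of the mixture expressed. In WT 0 hr Nfkbia was highest, at 162 CPM per kb. Nfkb2 (62.5), Nfkbie (55.6), Rela (52.2) and Bcl3 (50.4) followed, each overlapping the next. Relb (39.0) and Nfkb1 (21.0) stood apart from their neighbours, Tnfaip3 (11.7) and Nfkbiz (10.6) overlapped, and Rel (8.38) was lowest. In WT 48 hr Nfkbia (323), Bcl3 (100.1) and Nfkb2 (73.2) led without overlap. Rela (51.4), Nfkbie (49.0), Nfkb1 (47.2) and Tnfaip3 (46.8) overlapped, Relb (39.3) reached into their range, and Nfkbiz (19.5) and Rel (6.67) were lowest. In KO Nfkbia was also highest (192 at 0 hr and 346 at 48 hr), without overlap. At 0 hr Nfkbie (54.3), Nfkb2 (53.7), Rela (49.4), Bcl3 (40.9) and Relb (39.6) each overlapped the next, Nfkb1 (25.8) stood apart, and Tnfaip3 (11.4), Nfkbiz (9.06) and Rel (8.05) overlapped. At 48 hr in KO Bcl3 (88.6) overlapped Nfkb2 (64.3). Tnfaip3 (49.3), Rela (44.4), Nfkb1 (43.2), Nfkbie (41.1) and Relb (37.6) each overlapped the next, and Nfkbiz (22.2) and Rel (7.15) stood apart below them.

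The pattern most like each gene's was sought among 10942 other genes by the root-mean-square distance of centred log2 CPM over the 12 libraries, which share the 4 groups. The nearest were Tsnax to Nfkbia (distance 0.0647, r = 0.991, rho = 0.972), Atp2a2 to Tnfaip3 (distance 0.0736, r = 0.998, rho = 0.972) and Fbxw7 to Nfkb1 (distance 0.100, r = 0.981, rho = 0.972). For Nfkb2 it was Pik3cd, for Rel Atp9b, for Rela Usp48, for Relb Arid2, for Nfkbie St6gal1, for Nfkbiz Zfp422 and for Bcl3 B4galt5, at distances of 0.0725 to 0.154. Among the 10 genes themselves the closest pair was Rela and Relb (0.124, r = 0.661) and the farthest Nfkbie and Tnfaip3 (1.21, r = -0.484).

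KO and WT were compared at each time to ask whether loss of Chd4 alters these genes. At 0 hr 0 of 10 passed the test, where 1.11% of all tested genes did. Only Nfkbia had an unadjusted p below 0.05 (10.7% of all genes did), and DESeq2, limma-voom and edgeR's likelihood ratio test also called 0. Nfkbia was 1.19-fold higher in KO (log2 0.25, 95% interval 0.053 to 0.45, edgeR adjusted p = 0.296) and Nfkb1 1.23-fold (0.30, -0.0039 to 0.61, 0.481). These are the 2 of 10 genes whose libraries did not overlap, both higher in KO, where 14.9% of all genes did not overlap and 7.02% were higher. The other 8 ranged from -0.30 (Bcl3, 95% interval -0.67 to 0.074) to 0.022 (Relb, -0.24 to 0.28).

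At 48 hr 0 of 10 passed (2.02% of all genes did), 0 had an unadjusted p below 0.05 (14.4%), and DESeq2, limma-voom and edgeR's likelihood ratio test called 0. Differences ran from -0.25 (Nfkbie, 95% interval -0.62 to 0.11) to 0.19 (Nfkbiz, -0.19 to 0.56). Nfkbia alone did not overlap, higher in KO by 0.10 (95% interval -0.10 to 0.30), where 20.2% of all genes did not overlap and 10.7% were higher. For the difference between the 2 responses, 0 of 10 passed in edgeR (0.115% of all genes did), 0 had an unadjusted p below 0.05 (8.61%) and the other 3 tests called 0. These intervals bound a difference and do not show that there is none: over the 10 genes and both times the outermost bounds were 0.627-fold (Bcl3 at 0 hr) and 1.52-fold (Nfkb1 at 0 hr). Without KO replicates 6 and 12 the count was also 0 of 10 in all 3 comparisons. Calls over all genes then went from 212 to 674 at 0 hr and from 386 to 1351 at 48 hr. For the difference between responses they went from 22 to 136. Replicates 6 and 12 were the KO libraries nearest the WT mean over all tested genes, so more calls without them are built in.

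**Figure D3:**
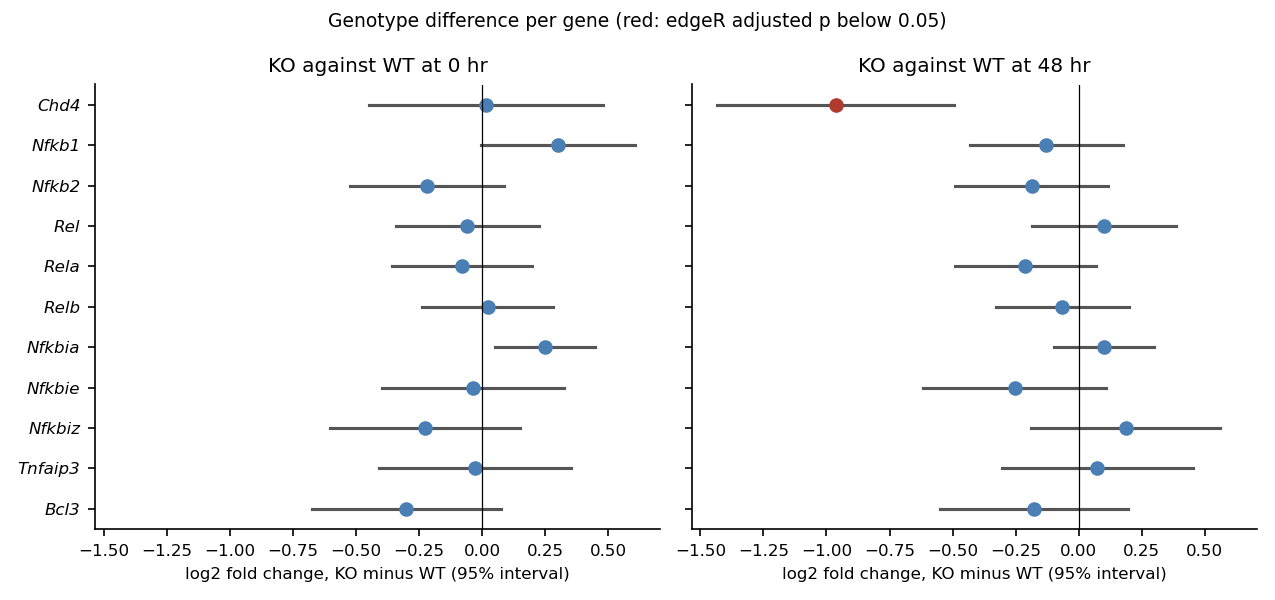
Log2 fold change of KO against WT at 0 hr and 48 hr for Chd4 and the 10 genes (points), with 95% intervals from edgeR (lines). Red marks an edgeR adjusted p below 0.05, which only Chd4 at 48 hr (-0.96) has, and of the 10 genes only Nfkbia at 0 hr has an interval that does not reach 0 (0.053 to 0.45).

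The 10 genes have 31 transcripts in the table, identified by UCSC number, all among the 36629 tested. In WT 15 of 31 were called over time, 11 higher and 4 lower (52.5% of all transcripts, 24.7% higher and 27.8% lower). In KO 13 of 31 were called, 9 higher and 4 lower (49.8%, 23.8% and 26%). Between genotypes edgeR called 0 of 31 at 0 hr (0.227% of all), at 48 hr (0.341%) and for the difference between responses (0.00819%), where 5, 0 and 1 had an unadjusted p below 0.05 (7.63%, 9.97% and 6.84% of all). Salmon divides reads among overlapping transcripts, so these are estimates, but a share within a gene does not depend on library scaling.

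Within Nfkb1 the transcript uc008rlx.1 made up 0.223%, 4.85% and 6.77% of the gene's count in WT 0 hr, 0%, 8.95% and 5.06% in KO 0 hr, 49.4%, 50.7% and 51.1% in WT 48 hr and 58.4%, 55.2% and 47.9% in KO 48 hr. The times were far apart and the genotypes overlapped at both. The 0% stands on 5685 counts, which allows a share of up to 0.0528%, for counting error only. The mean share went from 4.31% to 52.1%, 47.8 percentage points (exact two-sided permutation test within genotype, p = 0.00500, the smallest that 400 arrangements allow, adjusted over 3 genes p = 0.00750). The genotypes differed by 2.09 points (exact permutation p = 0.375, adjusted 0.650). On the TMM scale uc008rlx.1 rose from 3.26 ± 2.85 to 99.6 ± 7.82 CPM in WT (SD, n = 3, edgeR adjusted p = 0.00821) and from 5.04 ± 5.02 to 94.7 ± 14.0 in KO (0.0157). Over the same time uc008rly.1 of Nfkb1 fell by 0.90 (log2) in WT and by 1.32 in KO (edgeR adjusted p = 0.0244 and 0.00357).

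In Nfkb2 the main transcript uc008hst.2 made up 37.8%, 52.5% and 41.4% of the gene's count in WT 0 hr, 36.6%, 57.8% and 46.3% in KO 0 hr, 60.9%, 58.3% and 66.5% in WT 48 hr and 63.1%, 62.2% and 61.5% in KO 48 hr. All 48 hr libraries were above all 0 hr libraries, by the smallest margin for KO 0 hr replicate 5. The share was 16.7 points higher at 48 hr (exact permutation p = 0.00500, adjusted 0.00750) and 1.69 points apart between genotypes (exact permutation p = 0.650, adjusted 0.650). On the TMM scale, uc008hsv.1 fell by 2.66 (log2) in WT and 1.99 in KO, uc008hsu.2 fell by 0.64 and 0.90, and uc008hsy.2 rose by 0.88 and 1.40 (edgeR adjusted p = 0.000315 to 0.0197). The gene's total, not called with TMM, thus held unequal changes of its transcripts. In Tnfaip3, the third gene with at least 2 transcripts at 10% or more, uc007enb.3 made up 83.3% at 0 hr and 85.5% at 48 hr (exact permutation p = 0.345, adjusted 0.345).

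Relb, not called as a gene with TMM, held a minor transcript that was. Transcript uc033ixc.1 rose from 0.132 ± 0.228 to 11.1 ± 4.14 CPM in WT (SD, n = 3, edgeR adjusted p = 0.00436), and in KO it was 1.08 ± 0.978 and 7.14 ± 2.63 CPM (edgeR adjusted p = 0.0851). The main transcript uc033ixd.1 carried a mean of 84.0% to 88.0% of the gene in the 4 groups.

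**Figure D4:**
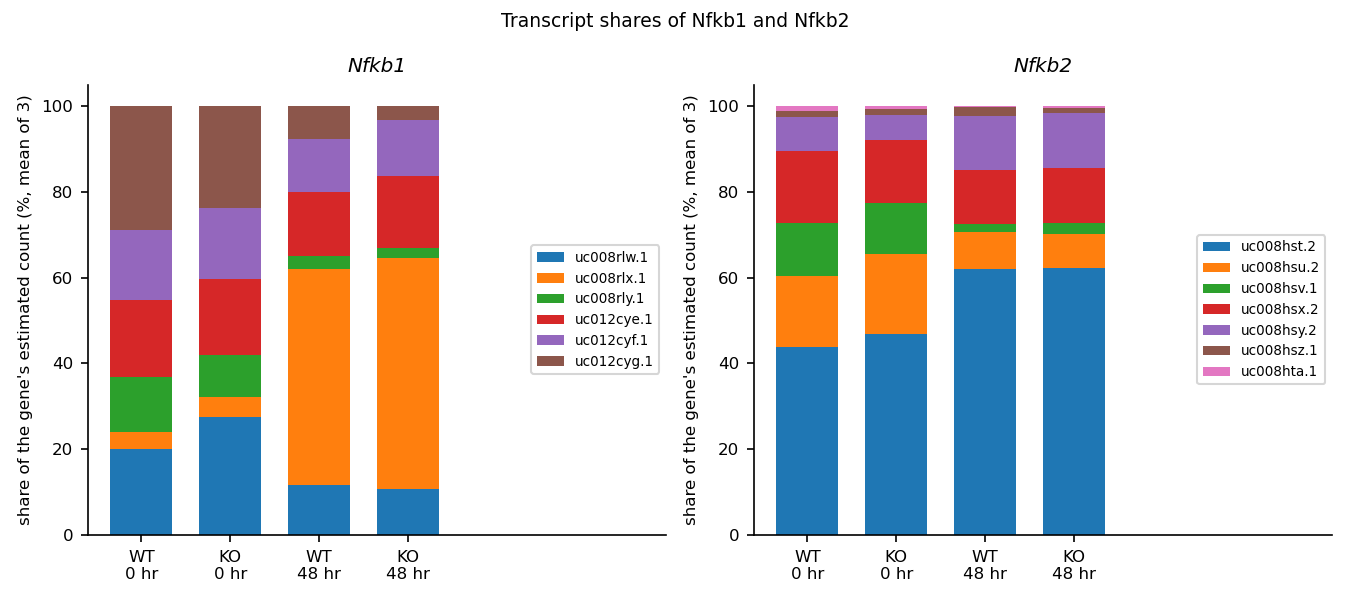
Mean share (n = 3) of each UCSC transcript in the estimated count of Nfkb1 and Nfkb2 in the 4 groups, stacked to 100%. In Nfkb1, uc008rlx.1 takes 3.95% (WT) and 4.67% (KO) at 0 hr and 50.4% and 53.8% at 48 hr, and in Nfkb2, uc008hst.2 takes 43.9% and 46.9% at 0 hr and 61.9% and 62.2% at 48 hr.

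The other IκB genes moved in opposite directions. Nfkbid encodes IκBNS, a nuclear IκB, and went from 91.5 ± 8.10 to 35.8 ± 1.81 CPM in WT and from 98.5 ± 13.3 to 28.7 ± 7.70 in KO (SD, n = 3). It fell by 1.35 (log2) in WT (edgeR adjusted p = 6.26e-06) and by 1.78 in KO (4.56e-07). At 48 hr KO stood at -0.32 against WT (edgeR adjusted p = 0.417), and without KO 48 hr replicate 12 Nfkbid was called lower in KO (-0.55, 0.0431). Nfkbib encodes IκBβ and went from 50.5 ± 0.549 to 109.7 ± 5.59 CPM in WT and from 50.8 ± 5.91 to 109.6 ± 6.44 in KO. It rose by 1.12 and 1.11 (log2, edgeR adjusted p = 3.20e-07 and 3.70e-07), and was also called higher with upper-quartile scaling and library totals alone.

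Other genes of the pathway came from 4 lists, counted on the TMM scale unless stated. Of 18 further IκB genes and A20-linked regulators, 7 rose and 3 fell in WT and 8 and 3 in KO (medians 0.22 and 0.18), where 33% and 40.9% of all tested genes in WT and 33% and 37.7% in KO did. With library totals alone the counts were 5 and 11 in WT (3603 and 11925 of all 19125 genes) and 4 and 11 in KO (3657 and 11344). Tnip3, an A20-binding protein, went from 0.713 ± 0.117 to 7.41 ± 2.24 CPM in WT (log2 3.37), Usp18, which removes ISG15, from 14.8 ± 1.55 to 102 ± 4.98 CPM (2.78) and Commd1, which promotes degradation of p65, from 27.6 ± 3.93 to 170.0 ± 25.4 CPM (2.62), with edgeR adjusted p = 3.32e-06, 5.42e-10 and 2.09e-09. In KO their log2 changes were 3.76, 2.72 and 2.35. Pdlim2, a ubiquitin ligase for nuclear p65, fell by 0.46 in WT and 1.23 in KO, and the deubiquitinase gene Otud7b by 0.40 and 0.52 (edgeR adjusted p = 0.0171, 1.03e-05, 0.0425 and 0.0127). The WT call of Pdlim2 was lost without replicate 2 or 9 or with RLE scaling (adjusted p = 0.0508 to 0.0683). The WT call of Otud7b was lost in 12 of 23 alternatives, among them leaving out replicate 1, 2, 3, 6, 7, 8, 10 or 11, and its KO call without replicate 5 or 10 (adjusted p = 0.0544 to 0.0704). Between genotypes 1 of 18 was called at each time (1.11% and 2.02% of all genes). Zc3h12c, a relative of regnase-1, was 6.82 ± 1.36 in WT and 14.8 ± 2.60 CPM in KO at 0 hr (log2 1.11, edgeR adjusted p = 0.0267) and 7.23 ± 0.807 and 15.9 ± 3.99 at 48 hr (1.14, 0.0205). The call was lost at 0 hr without replicate 2, 3 or 6 or with only the libraries compared (adjusted p = 0.0548 to 0.127) and at 48 hr without replicate 7, 8, 9, 10 or 11 (adjusted p = 0.0823 to 0.124).

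Of 35 kinases and adaptors, 16 rose and 9 fell in WT and 16 and 10 in KO (medians 0.049 and 0.11), where 33% and 40.9% of all tested genes in WT and 33% and 37.7% in KO did. With library totals alone the counts were 8 and 22 in WT (3603 and 11925 of all 19125 genes) and 8 and 21 in KO (3657 and 11344). Traf1, an NF-κB-induced adaptor, went from 64.4 ± 1.24 to 301 ± 4.90 CPM in WT (log2 2.22) and Birc2, the ubiquitin ligase cIAP1, from 78.5 ± 3.09 to 245 ± 8.31 CPM (1.64). Traf5, another adaptor, went from 197 ± 5.89 to 57.1 ± 2.26 CPM (-1.78) and Malt1, the paracaspase of antigen-receptor signalling, from 241 ± 10.4 to 80.0 ± 2.12 CPM (-1.59), each with edgeR adjusted p = 5.45e-06 or less. In KO these 4 changed by 2.55, 2.23, -1.71 and -1.63. Also in WT, Ube2n, the ubiquitin-conjugating enzyme Ubc13, rose by 1.67 (edgeR adjusted p = 1.88e-09) and the kinase gene Irak2 fell by 1.41 (1.12e-07). In KO Ikbke, encoding IKKε, rose by 1.65 (edgeR adjusted p = 4.88e-05) and Map3k14, encoding the kinase NIK of the alternative pathway, fell by 1.27 (2.03e-05). At 0 hr edgeR called 0 of 35 between genotypes (1.11% of all genes), where 8 had an unadjusted p below 0.05 (10.7% of all genes). DESeq2 called 4, limma-voom 1 and the likelihood ratio test 3, and the shares of all genes for these tests are not given here. At 48 hr it called 1 higher and 1 lower in KO (2.02% of all genes). Irak4, the first kinase of the Toll-like receptor complex, was 19.2 ± 1.41 in WT and 6.66 ± 3.76 CPM in KO (log2 -1.53, edgeR adjusted p = 0.0358), and was not called without replicate 1, 2, 3, 7, 8, 9, 10 or 12 or with no low-count filter (adjusted p = 0.0530 to 0.162). Tirap, an adaptor of TLR4, was 12.3 ± 0.660 and 21.8 ± 4.52 CPM (0.82, 0.0191), and was not called without replicate 7, 8, 9, 10 or 11 or by limma-voom (adjusted p = 0.0531 to 0.125).

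Of 19 receptors, 9 rose and 8 fell in WT and 7 and 7 in KO (medians 0.15 and -0.14), where 33% and 40.9% of all tested genes in WT and 33% and 37.7% in KO did. With library totals alone the counts were 4 and 11 in WT (3603 and 11925 of all 19125 genes) and 3 and 11 in KO (3657 and 11344). Tlr7, a sensor of RNA, went from 28.8 ± 6.72 to 148 ± 9.48 CPM in WT (log2 2.36), Cd40 from 108 ± 3.17 to 316 ± 21.4 CPM (1.54) and Cd79a, part of the B cell receptor, from 2528 ± 193 to 899 ± 47.8 CPM (-1.49), with edgeR adjusted p = 2.41e-07, 1.81e-08 and 5.63e-08. Tnfrsf13b, encoding TACI, rose by 1.75 in WT (edgeR adjusted p = 1.10e-08) and 1.47 in KO (6.69e-08). In WT Tlr2 fell by 0.84 (edgeR adjusted p = 0.0243) and Cd180, a relative of TLR4, by 0.67 (0.00445), and Tlr2 was not called without replicate 2, 7 or 9 or by limma-voom (adjusted p = 0.0550 to 0.186). In KO Tlr7 rose by 2.71 and Cd79a fell by 1.60. The tumour necrosis factor receptor gene Tnfrsf1a fell by 3.59 in KO, and Cd14, the LPS co-receptor, by 3.40 (edgeR adjusted p = 6.24e-05 and 0.000308). Tnfrsf1b rose by 1.26 in KO (0.000944) and was not called with library totals alone (adjusted p = 0.142). The 1 receptor gene called between genotypes was Tnfrsf13b at 0 hr (59.4 ± 8.48 CPM in WT and 91.9 ± 6.05 in KO, log2 0.63, edgeR adjusted p = 0.0157), and it was not called without replicate 1 or 3 or with only the libraries compared (adjusted p = 0.0980 to 0.116). At 48 hr edgeR called 0 of 19 (2.02% of all genes), where 7 had an unadjusted p below 0.05 (14.4% of all genes). DESeq2 and the likelihood ratio test called 3 each and limma-voom 0, again without the shares of all genes for these tests.

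Of 55 tested genes listed as NF-κB targets, 33 rose and 13 fell in WT and 34 and 13 in KO (medians 1.23 and 1.18), where 33% and 40.9% of all tested genes in WT and 33% and 37.7% in KO did. With library totals alone the counts were 27 and 22 in WT (3603 and 11925 of all 19125 genes) and 27 and 20 in KO (3657 and 11344). The cytokine gene Il6 went from 0.138 ± 0.111 to 51.4 ± 5.21 CPM in WT (log2 8.55) and the chemokine gene Ccl22 from 3.22 ± 1.11 to 147 ± 8.43 CPM (5.52), while Icosl, a costimulatory ligand, went from 253 ± 6.83 to 7.91 ± 1.32 CPM (-5.00) and Cr2, the complement receptor CD21, from 602 ± 116 to 23.1 ± 5.66 CPM (-4.71), each with edgeR adjusted p = 1.04e-08 or less. Vcam1, an adhesion molecule, fell by 8.31 in WT (edgeR adjusted p = 1.98e-06) and 8.07 in KO (1.65e-06), from 33.9 ± 21.8 and 44.0 ± 35.3 CPM to 0.106 ± 0.0985 and 0.157 ± 0.209. Il10, an anti-inflammatory cytokine, rose by 5.78 and 7.59 (edgeR adjusted p = 7.13e-08 and 5.19e-09). In KO Il6 rose by 7.41 and Ccl22 by 6.26, and Icosl fell by 4.81 and the cyclin gene Ccnd1 by 5.45 (edgeR adjusted p = 4.99e-08 or less). At 48 hr 4 of 55 were called higher and 1 lower in KO, where 2.02% of all genes were called. The plasma cell marker sums given above, at 48 hr mostly Xbp1, lay higher in KO without overlap. Their part in these values was not tested. Il10 was 9.44 ± 1.63 CPM in WT and 41.4 ± 7.30 in KO (log2 2.13, edgeR adjusted p = 0.00496), and was not called without replicate 9 (adjusted p = 0.0529). Cd80, a costimulatory ligand, was 1.37 ± 0.279 and 5.25 ± 1.28 CPM (1.94, 0.0256) and the chemokine gene Ccl4 was 2.65 ± 0.529 and 7.23 ± 2.00 (1.45, 0.0323). The survival gene Bcl2a1d was 586 ± 74.1 and 385 ± 32.3 CPM (-0.61, 0.0164), with reads that near-identical family members could share. Cd80 was not called without replicate 7, 8, 9, 10 or 11 or by limma-voom (adjusted p = 0.0510 to 0.143), Ccl4 without replicate 1, 3, 7, 8, 9, 10 or 11 (adjusted p = 0.0509 to 0.185), and Bcl2a1d without replicate 7, 8 or 10 (adjusted p = 0.0609 to 0.0927). The fourth higher gene, Egr1 (0.79), and Cxcl10, lower in KO at 0 hr (-1.62), are named after their values were seen. Egr1 was not called without replicate 1, 3, 7, 8, 9, 10 or 11 or by limma-voom (adjusted p = 0.0523 to 0.188), and Cxcl10 without replicate 2 or 4 or with only the libraries compared (adjusted p = 0.0516 to 0.142). For the difference between responses edgeR called 0 genes of the 4 lists (0.115% of all genes). There 26 of 127 had an unadjusted p below 0.05 (8.61% of all genes). DESeq2 called 7, limma-voom 0 and the likelihood ratio test 4, and the shares of all genes for these tests are not given here.

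**Figure D5:**
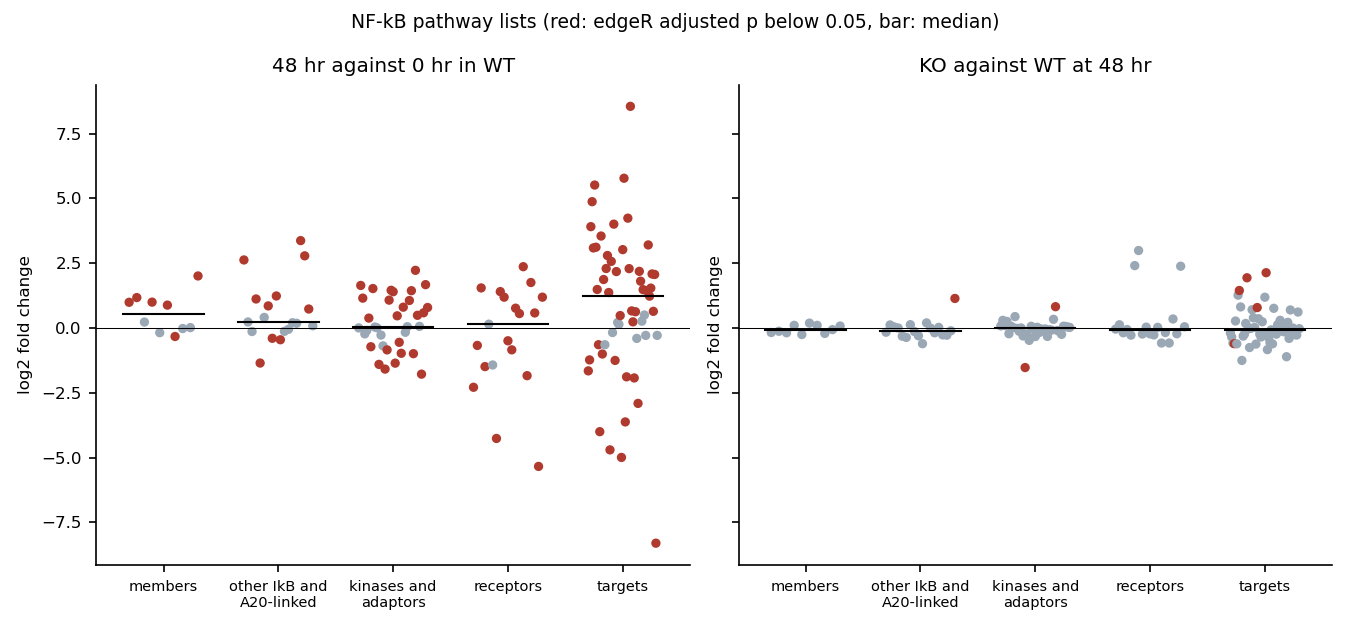
Log2 fold change on the TMM scale of the 10 genes (members) and the tested genes of the 4 lists (points, red at an edgeR adjusted p below 0.05, bar at the median), for 48 hr against 0 hr in WT and for KO against WT at 48 hr. The target genes spread most over time, around a median of 1.23, which library totals alone would shift down by 0.89 with all other points, and few points are red between genotypes.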

How the data were processed

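The deposited values are the authors' estimated counts, 1 whole number for each transcript in each library. They used bcl2fastq 2.20.0.422, Trimmomatic 0.36, Salmon 0.8.2, DESeq2 1.14.1 and build mm10, per the submitters' processing notes. Per the labels' protocols, cDNA came from a SMART-Seq kit, which does not mark strand, so overlapping and antisense genes cannot be told apart.

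Counts of 63759 transcripts were summed by symbol, after spaces were trimmed from 344 names. The fit in edgeR 4.0.16 (R 4.3.3) covered all 12 libraries as 4 groups: filterByExpr, TMM, robust quasi-likelihood F test with 8 residual degrees of freedom, and Benjamini-Hochberg adjustment over all tested genes. It was tested on simulated data. DESeq2 1.42.0 and limma-voom (limma 3.58.1) were alternatives, as were other scalings, filters, single transcripts and leaving out libraries. Transcript shares were tested by exact permutation. Promoter windows came from RefSeq.

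The 10 genes, the lists and the alternatives were chosen with earlier results of these data known. Beside these genes, Chd4, Nfkbid and Nfkbib, the text names genes drawn by rule: for each list and comparison, the 3 largest called changes in either direction among genes whose higher group reached 5 CPM, and the gene nearest in pattern to each of the 10. Cell type marker lists, to which the rule also applies, are given as sums, and their genes named were chosen after their values were seen.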

Additional observations from a re-analysis of the deposited data

How the results depend on the processing

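No paired analysis was possible because the replicate numbers run from 1 to 12 without a repeat. The count of 0 of 10 genes between genotypes, and for the difference between responses, was the same under every alternative. Over time, 3 genes were called higher and 5 lower in WT with upper-quartile scaling and 1 and 5 with library totals alone. In KO 5 were lower with the former, and 2 higher and 5 lower with the latter. With the former the median of all genes was -1.06 (WT) and -0.93 (KO), and with the latter -1.28 and -1.12 (log2). The shares of all genes called with the former are not given here. The number called lower was 0 in both genotypes with DESeq2, RLE scaling, TMM without immunoglobulin, mitochondrial and ribosomal protein genes, and single transcripts, 0 in KO with only the libraries of the comparison, and 3 in KO with a filter of 1 CPM in 3 libraries. Leaving out 1 library gave 5 to 5 higher and 0 to 1 lower in WT, and 5 to 6 and 0 to 1 in KO.

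Signs of log2 differences turned only where a value was near 0 or the scale moved all genes. Over time in WT, Rela was 0.071 with DESeq2, 0.071 with RLE scaling, 0.00076 with TMM without those genes, 0.033 for its main transcript and -0.053 to 0.064 without 1 library. Relb in WT was -0.66 with upper-quartile scaling, -0.87 with library totals, -0.14 with the 1 CPM filter, -0.017 with only the libraries compared, -0.019 for its main transcript and -0.058 to 0.10 without 1 library. Nfkb2 was -0.45 (WT) and -0.37 (KO) with upper-quartile scaling and -0.66 and -0.56 with library totals, where Nfkbiz in WT was -0.011 and Nfkb1 in KO -0.072. Without 1 library, Rel in KO was -0.26 to 0.020 and Relb in KO -0.14 to 0.033. KO against WT at 0 hr, leaving out 1 library gave -0.079 to 0.081 for Relb, -0.16 to 0.095 for Nfkbie, -0.23 to 0.18 for Tnfaip3 and -0.24 to 0.040 for Rel, and at 48 hr -0.069 to 0.15 for Tnfaip3. Relb at 0 hr was -0.0030 with upper-quartile scaling and -0.013 with library totals, and Rel 0.014 without KO replicates 6 and 12. For the difference between responses, Nfkb2 was -0.019 with DESeq2, -0.019 with RLE scaling, -0.15 for its main transcript, -0.039 without KO replicates 6 and 12 and -0.10 to 0.19 without 1 library. There Bcl3 was -0.19 without KO replicates 6 and 12, and without 1 library Bcl3 was -0.11 to 0.28, Tnfaip3 -0.11 to 0.31 and Relb -0.21 to 0.014. The share of uc008hst.2 in Nfkb2 differed between genotypes by -1.04 to 4.26 points. The cause was not tested.

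Calls between genotypes ranged from 75 to 674 at 0 hr (212 reported) and from 125 to 1351 at 48 hr (386). For the difference between responses they ranged from 3 to 220 (22). These ranges are over all genes, except that the setting with single transcripts called 83, 125 and 3 of 36629 transcripts. The 125 is thus a count of transcripts, and leaving out 1 library gave 136 genes or more at 48 hr. Calls over all genes over time were 3603 higher and 11925 lower in WT and 3657 and 11344 in KO with library totals alone (6311 and 7827, and 6311 and 7206, reported). Of the target genes, 1 at 0 hr and 5 at 48 hr were called between genotypes, against 6 and 13 by DESeq2, 2 and 3 by limma-voom and 5 and 11 by edgeR's likelihood ratio test. The calls of these tests over all genes lay within the ranges above, which differ from the 212 and 386 reported. The share of all genes for each test is not given here, so its count of target genes cannot be set against it. With 3 libraries a group, the 95% intervals given beside the genotype differences state their precision.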
